A study of Mus musculus with 12 samples.

Results

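Private clonotypes are T cell receptor α chain (TCRα) sequences that were found in 1 mouse of the series and in no other. They were chosen by their UMI counts. An in-frame clonotype, that is, a combination of a TRAV segment, a CDR3 amino acid sequence and a TRAJ segment without a stop codon or frameshift, was private when it occurred in exactly 1 of the 12 libraries and was counted there with at least 3 UMIs. A UMI (unique molecular identifier) is a random tag attached to each cDNA molecule, so that molecules and not amplified copies are counted. The rule chose 4407 of 20615 in-frame clonotypes (21.4%), which together held 17424 of the 199248 UMIs of the series. The comparison was with shared clonotypes, found in 2 or more libraries and counted with at least 3 UMIs in the library in which they were measured. Because presence and counts chose the private clonotypes, their numbers, shares and sizes are given below as a description and were not tested.

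Tcra mRNA was sequenced from newly developed thymic regulatory T lymphocytes (Treg), 100000 cells from each of 12 mice aged 3 weeks. Cells were sorted as CD4+CD8-Thy1.1+GFP+. The Foxp3-Thy1a reporter marks cells that express Foxp3, and in Rag2-Gfp mice recently generated T cells still carry GFP, so that older Treg which have returned to the thymus are left out. All mice were of the B6 strain, carried both reporters and the Kaa Tcrb transgene, and had 1 functional and 1 null allele of Tcra (Tcra+/null). The transgene gives the developing cells a common TCRβ chain, and the null allele leaves a single Tcra allele to rearrange, so that the repertoire of these mice is that of a fixed β chain and not of an unmanipulated animal. In each of 3 genotypes, 4 mice were sequenced: wt mice with both cytokines, Il2° mice, which lack IL-2, and Il15° mice, which lack IL-15. The tables hold Tcra rearrangements only, so that markers of Treg could not be examined in them.

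The TCRα gene is assembled in thymocytes by joining a TRAV to a TRAJ segment. Ends of both segments are trimmed, and bases that neither segment encodes can be inserted at the junction by terminal deoxynucleotidyl transferase. The junction encodes the CDR3 loop, the part of the chain that lies over the peptide in the groove of the MHC molecule. The mouse Tcra locus holds duplicated blocks of TRAV segments, whose copies carry the letters D or N in their names (TRAV4-3, TRAV4D-3, TRAV4N-3) and can be nearly identical in sequence. A T cell receptor read is therefore assigned with less certainty to a copy than to its TRAV family.

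The private clonotype with the most UMIs in each library is shown here, as an example of a V-J junction. UMIs count Tcra mRNA molecules and not cells. Each line gives the library, the TRAV and TRAJ segments, for most the CDR3 amino acids, and then the CDR3 bases from 5′ to 3′. Capitals mark the bases between the end of the TRAV match and the start of the TRAJ match as the deposited positions give them; a sequence without capitals has none.
wt replicate 1, TRAV4N-4 TRAJ15, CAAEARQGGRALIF: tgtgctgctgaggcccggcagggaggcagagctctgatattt
wt replicate 2, TRAV4N-3 TRAJ37, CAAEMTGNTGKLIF: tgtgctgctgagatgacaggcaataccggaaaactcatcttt
wt replicate 2, TRAV9D-4 TRAJ23, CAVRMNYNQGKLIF: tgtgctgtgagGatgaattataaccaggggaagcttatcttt
wt replicate 3, TRAV4-2 TRAJ22, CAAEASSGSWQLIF: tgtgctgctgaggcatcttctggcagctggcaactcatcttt
wt replicate 4, TRAV10N TRAJ31, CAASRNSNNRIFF: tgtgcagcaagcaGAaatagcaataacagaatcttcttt
Il2° replicate 1, TRAV9N-2 TRAJ23, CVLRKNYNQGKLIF: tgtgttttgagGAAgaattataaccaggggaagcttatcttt
Il2° replicate 2, TRAV10N TRAJ9, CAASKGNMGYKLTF: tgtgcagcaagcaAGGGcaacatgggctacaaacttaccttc
Il2° replicate 3, TRAV10 TRAJ31, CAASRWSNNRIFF: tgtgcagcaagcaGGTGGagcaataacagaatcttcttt
Il2° replicate 3, TRAV7-2 TRAJ4, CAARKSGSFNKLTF: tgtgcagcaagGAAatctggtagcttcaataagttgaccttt
Il2° replicate 4, TRAV7N-5 TRAJ18, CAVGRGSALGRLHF: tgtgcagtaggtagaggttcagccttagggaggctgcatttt
Il15° replicate 1, TRAV14D-2 TRAJ27: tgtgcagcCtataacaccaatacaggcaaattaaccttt
Il15° replicate 2, TRAV6-6 TRAJ23, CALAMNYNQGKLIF: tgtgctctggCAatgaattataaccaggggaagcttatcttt
Il15° replicate 3, TRAV4D-4 TRAJ23, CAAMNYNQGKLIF: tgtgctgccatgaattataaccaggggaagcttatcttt
Il15° replicate 4, TRAV13N-2 TRAJ28: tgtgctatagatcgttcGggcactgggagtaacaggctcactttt

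For comparison, the shared clonotype with the highest mean share of UMIs over the 12 libraries, TRAV10 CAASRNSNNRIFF TRAJ31 (2.12%), was found in all of them, and its commonest sequence in Il2° replicate 1 had no inserted base.
Il2° replicate 1, TRAV10 TRAJ31, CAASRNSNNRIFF: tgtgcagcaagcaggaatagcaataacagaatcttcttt
All segments named here lie on the plus strand of chromosome 14 (GENCODE M21 annotation of GRCm38, the assembly called mm10 in the submitters' processing notes) and are annotated there as TR_V_gene or TR_J_gene. TRAV10 is at chr14:53505727-53506286, its copy TRAV10N at chr14:53122114-53122610 and TRAJ31 at chr14:54187895-54187951. The private clonotype of wt replicate 1 joined TRAV4N-4 (chr14:53302036-53302559) to TRAJ15 (chr14:54204422-54204481). That of Il15° replicate 1 joined TRAV14D-2 (chr14:52948568-52949169) to TRAJ27 (chr14:54192303-54192361).

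Privacy in these libraries rested on low counts, on pairs of libraries that shared single UMIs and on the names of TRAV copies, and these measurements come before the comparisons. Libraries held between 7625 UMIs (Il2° replicate 4) and 25980 UMIs (wt replicate 1). A count of 0 allowed a share of up to 0.0393% in the shallowest library and up to 0.0115% in the deepest, counting error only. Of the 4407 private clonotypes, 259 (5.88%) had a share that would have given at least 3 UMIs in each of the other 11 libraries, and 1093 (24.8%) one that would have done so in the other 3 libraries of their genotype. For the remainder, absence from another mouse was not distinguishable from a low count at this depth.

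Sharing between libraries was uneven. Of 5366 clonotypes found in exactly 2 libraries, 4172 (77.7%) fell in 9 of the 66 possible pairs of libraries, with 216 to 843 clonotypes each. The other 57 pairs held 1 to 79, with a median of 14. Of the 9 pairs, 7 were of the same genotype and 7 joined libraries whose tables were numbered consecutively by the submitters. In these 9 pairs, 53.3% of the clonotypes had a single UMI in one library and at least 3 in the other, and 14.8% had 2 or more in both, against 34.8% and 38.8% in the other pairs. The direction was one-sided. Of the 843 clonotypes found only in wt replicate 1 and wt replicate 2, 532 had 1 UMI in wt replicate 1 and at least 3 in wt replicate 2, and 5 the reverse. For Il15° replicates 1 and 4 these numbers were 414 and 5, and for wt replicate 2 and Il2° replicate 1 they were 357 and 1. When a single UMI in another library was allowed, 7611 clonotypes were private in place of 4407. What produced the single UMIs was not tested. Most comparisons below are also given with 1 UMI elsewhere allowed.

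The TRAV name also decided privacy in part. Among the private clonotypes, 1247 (28.3%) had the same CDR3 amino acids and the same TRAJ in another library under another TRAV name, and in 560 (12.7%) the CDR3 bases were identical as well. Merging the D and N copies of TRAV segments by name made 500 of them (11.3%) shared, and 3160 (71.7%) were private by CDR3 and TRAJ alone. Of the private clonotypes, 14 (0.318%) were 1 base away from a clone of the same library with the same segments and at least 10 times their UMIs, against 0.369% of the shared ones.

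Private clonotypes were small. Just inside the rule were 2490 with 3 UMIs and 990 with 4, and just outside it were 2051 clonotypes of 1 library with 2 UMIs and 4385 with 1. Another 3649 that reached 3 UMIs were outside because they occurred in a second library. Among the private clonotypes, 927 had 5 or more UMIs and 58 had 10 or more, and the median was 3.

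The number of private clonotypes differed widely between mice of the same genotype. In the wt libraries they numbered 1006, 551, 194 and 405 (replicates 1 to 4), or 37.1%, 19.7%, 9.52% and 19.4% of the clonotypes with at least 3 UMIs. In the Il2° libraries they numbered 115, 690, 227 and 57, or 7.39%, 35.03%, 16.2% and 9.15%. In the Il15° libraries they numbered 595, 303, 31 and 233, or 33.0%, 19.3%, 3.37% and 11.5%. The lowest and highest values were 9.52 and 37.1% in wt, 7.39 and 35.03% in Il2° and 3.37 and 33.0% in Il15°, so that the genotypes overlapped over most of their range.

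Their share of all UMIs spread as widely. It was 15.3% in wt replicate 1 (95% Wilson interval 14.9 to 15.7%, counting error only) and between 4.64 and 8.63% in the other wt libraries. In Il2° replicate 2 it was 13.5% (13.04 to 14.02%) and in the other Il2° libraries between 2.50 and 5.05%. Among the Il15° libraries, replicates 1 and 2 had 14.97% (14.5 to 15.5%) and 10.4% (9.91 to 10.9%), replicate 4 had 4.92%, and replicate 3 had 1.85% (1.61 to 2.12%). The mean was 9.25% ± 4.43 (SD, n = 4) for wt, 6.15% ± 5.03 for Il2° and 8.04% ± 5.82 for Il15°. Under this rule the SD within each genotype was larger than any difference between these means. With 1 UMI elsewhere allowed, the share was 13.4 to 18.3% in wt, 5.11 to 16.9% in Il2° and 15.4 to 21.7% in Il15° libraries. The means were then 15.9% ± 2.2, 11.6% ± 5.4 and 17.7% ± 2.8 (SD, n = 4). Those of Il15° and Il2° were further apart than the SD of any genotype, though their ranges overlapped. Most of the private share of Il15° replicate 3 (17.5% in place of 1.85%) and Il2° replicate 1 (16.9% in place of 3.52%) thus depended on single UMIs in other libraries.

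**Figure D1:**
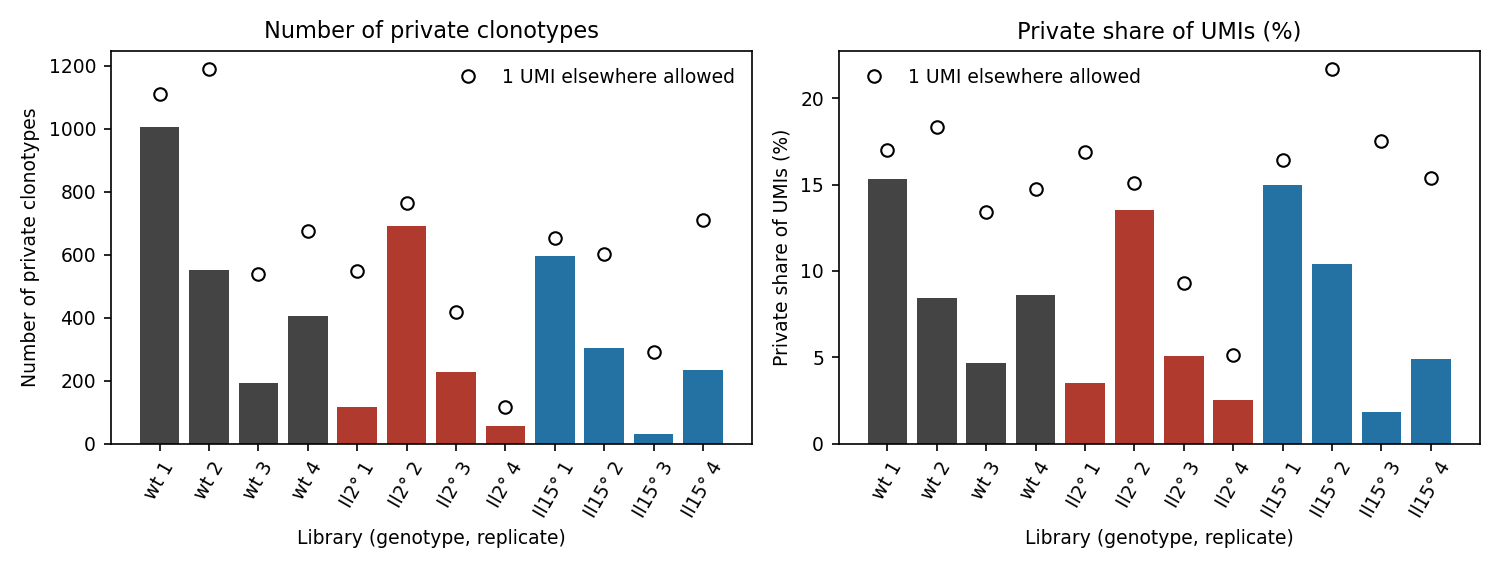
Number of private clonotypes (left) and their share of all UMIs in percent (right) in each of the 12 libraries, as bars coloured by genotype (grey wt, red Il2°, blue Il15°). Open circles give the same value when a single UMI in another library is allowed. Bars range from 31 to 1006 clonotypes and from 1.85 to 15.3% of UMIs, with high and low libraries in every genotype.

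The largest private clone of the series had 41 UMIs, 0.158% of wt replicate 1 (95% Wilson interval 0.116 to 0.214%), whereas the largest shared clone of that library held 1.65%. It joined TRAV4N-4 to TRAJ15 without an inserted base, and the same CDR3 and TRAJ occurred under other TRAV names in all 12 libraries, with 142 UMIs under TRAV4D-4 in the same mouse. The largest private clone of Il15° replicate 1 (TRAV14D-2 TRAJ27) had 35 UMIs, or 0.194% (0.140 to 0.270%), and that of wt replicate 3 (TRAV4-2 TRAJ22) had 29 UMIs, or 0.182% (0.126 to 0.261%). Both had the same CDR3 and TRAJ under other TRAV names, the first in 12 libraries and the second in 11, their own library included. In their own library these other forms had 66 UMIs (TRAV14-2, the first) and 6 UMIs (TRAV4D-4, the second). These largest private clones of the series thus had a CDR3 that was not private to the mouse.

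Some of the other leading private clones had a CDR3 that no other library held. The clone of Il2° replicate 1 (TRAV9N-2 TRAJ23) had 15 UMIs and an inserted stretch of 3 bases, that of Il2° replicate 4 (TRAV7N-5 TRAJ18) had 7 UMIs, and that of Il15° replicate 4 (TRAV13N-2 TRAJ28) had 10 UMIs. None of these had its CDR3 and TRAJ under any other TRAV name in the series. The leading private clone of Il2° replicate 2 (TRAV10N TRAJ9, 17 UMIs) had 4 inserted bases and occurred as TRAV10 in 1 library with at most 3 UMIs. Of the tied pair in Il2° replicate 3 (8 UMIs each), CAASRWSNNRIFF had 5 inserted bases and occurred as TRAV10N with 1 UMI in 1 library. The CDR3 and TRAJ of the other clone of this pair (TRAV7-2) occurred under other TRAV names in 5 libraries, its own included. Those of the Il15° replicate 2 clone (TRAV6-6) did so in 12, with 11 UMIs as TRAV6D-6 in its own library. For the tied clones of wt replicate 2 this held in 4 libraries (TRAV4N-3) and 1 library (TRAV9D-4).

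In wt replicate 4 the leading private clone was a TRAV10N form of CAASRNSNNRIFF TRAJ31 with 13 UMIs, while the TRAV10 form of the same CDR3, the most abundant shared clonotype, had 317 UMIs in that library. Of its bases, 2 were scored as inserted. TRAJ23 was the joining segment of the leading private clone in 4 libraries: wt replicate 2 (10 UMIs, tied with a TRAJ37 clone), Il2° replicate 1, Il15° replicate 2 (16 UMIs) and Il15° replicate 3 (17 UMIs). The CDR3 of Il15° replicate 3 (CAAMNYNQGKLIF) occurred under 8 other TRAV names in 8 libraries, with at most 12 UMIs. By genotype, the largest private clone of a library had 10 to 41 UMIs in wt, 7 to 17 in Il2° and 10 to 35 in Il15°. Clones of 10 or more UMIs numbered 23, 10 and 25 of the 2156, 1089 and 1162 private clonotypes of these genotypes.

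Private clonotypes had more inserted bases at the V-J junction than shared clonotypes in every library. Means were 3.35, 3.08, 2.70 and 3.16 bases for private clonotypes of the wt libraries (replicates 1 to 4), against 2.07, 2.31, 2.43 and 2.23 for shared ones. In Il2° libraries they were 3.36, 3.11, 2.64 and 2.33 against 2.39, 1.96, 1.96 and 1.81. In Il15° libraries they were 3.53, 3.52, 2.16 and 3.41 against 1.98, 2.23, 2.16 and 2.39. The smallest difference was in Il15° replicate 3, which had only 31 private clonotypes and where the means were apart by 0.00458 bases. Over the 12 libraries private clonotypes had 3.03 ± 0.46 (SD, n = 12) and shared clonotypes 2.16 ± 0.20 inserted bases, a difference of 0.869 (exact 2-sided Wilcoxon matched pairs test, p = 0.000488, the smallest that 12 pairs can give, adjusted p = 0.00163 over 5 junction and length measures). With 1 UMI elsewhere allowed the difference was 1.11 bases (exact test, p = 0.000488). The 12 pairs were not independent. Their shared values draw on the same clonotypes (17096 entries of 7617 clonotypes), and the private set of a library depends on the contents of the others. This limit holds for all tests of private against shared clonotypes below.

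The difference lay at the long end more than in the absence of insertion. Junctions with 6 or more inserted bases made up 15.6% ± 4.6 of private and 6.14% ± 1.93 of shared clonotypes and were more frequent among private ones in 11 of 12 libraries (exact Wilcoxon test, p = 0.000977, adjusted p = 0.00163). Junctions without an inserted base made up 23.8% ± 5.6 against 29.6% ± 2.5 and were less frequent among private clonotypes in 11 of 12 libraries (exact p = 0.00244, adjusted p = 0.00305). The exceptions were Il2° replicate 1 for the first (7.83 against 8.54%) and Il15° replicate 3 for the second (35.5 against 31.2%). With at least 5 UMIs in both sets, the difference in junctions without an inserted base was -4.58 percentage points and did not pass (exact p = 0.233). The differences with 1 UMI elsewhere allowed were 12.3 percentage points for 6 or more inserted bases and -8.52 for none (exact p = 0.000488 for both). Both of these shares and the spread of lengths below were added as measures after the data had been seen.

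The number of inserted bases fell with the number of libraries that held a clonotype. Clonotypes counted with at least 3 UMIs in some library had on average 3.21 inserted bases when found in 1 library, 2.99 in 2, 2.65 in 3, 2.07 in 5, 1.84 in 10 and 1.44 in all 12. The share without an inserted base rose from 21.8% in 1 library to 39.1% in 12. These means are over 4407 private clonotypes and 174 clonotypes of all libraries, and the values between them did not fall at every step (1.97 for 8 libraries after 1.85 for 7). Clonotypes of 2 libraries were thus closer to private clonotypes than to the shared remainder. Clone size rose along the same axis. The median of a clonotype's highest UMI count was 3 in 1 library, 4 in 2, 6 in 5, 15 in 10 and 34 in 12. Sharing and clone size were not separated in these means.

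**Figure D2:**
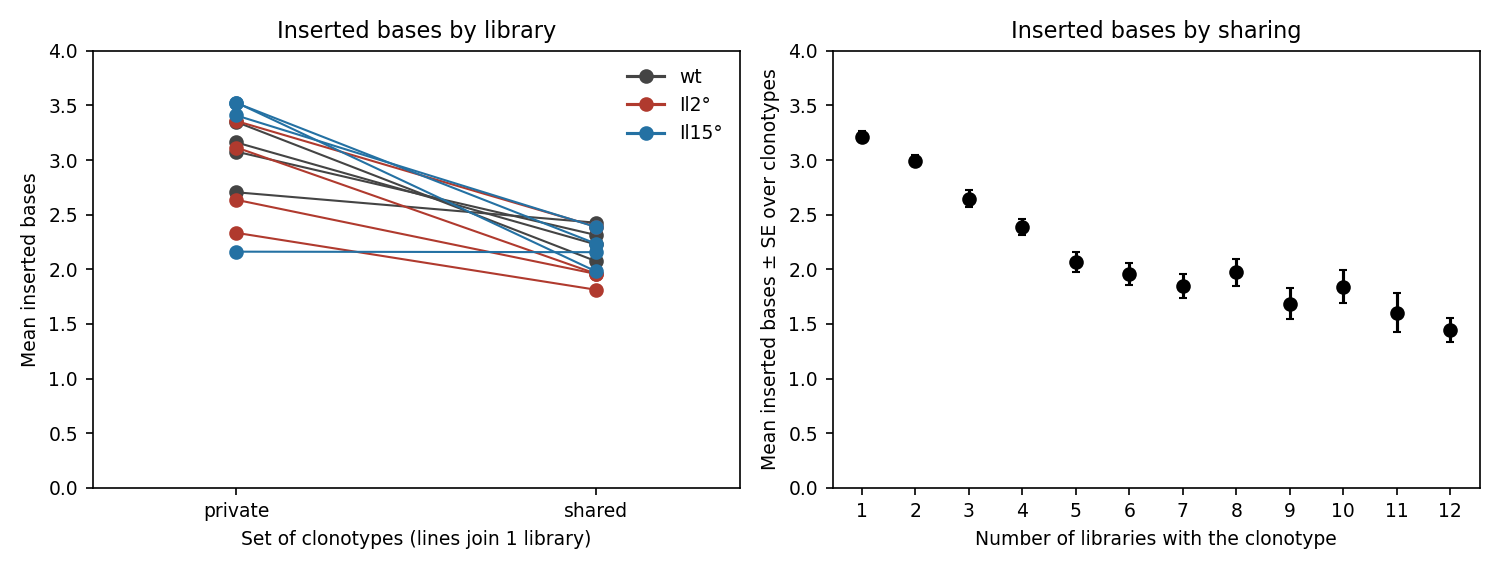
Mean number of inserted bases for private and shared clonotypes, with a line for each of the 12 libraries coloured by genotype (left), and mean with its standard error over clonotypes by the number of libraries in which the clonotype occurred (right). The private mean was above the shared mean in all 12 libraries, by 0.00458 bases in Il15° replicate 3, and the mean was 3.21 bases at 1 library and 1.44 at 12.

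A private clonotype was also encoded by few base sequences. Among clonotypes with 3 to 10 UMIs, 92.5 to 99.5% of the private clonotypes of a library had 1 CDR3 base sequence, against 52.9 to 90.1% of shared clonotypes in the same range of UMIs. The 2 ranges did not overlap, and the private value was the higher in every library. CDR3 sequences began with cysteine and ended with phenylalanine or tryptophan, the usual anchors of the loop, in 4398 of 4407 private clonotypes (99.8%).

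CDR3 length had a wider spread in private clonotypes, while the call for its mean depended on the setting. The mean was 13.09 ± 0.12 amino acids for private and 13.05 ± 0.03 for shared clonotypes (n = 12), a difference of 0.0395 that was positive in 8 of 12 libraries (exact Wilcoxon test, p = 0.339). When 1 UMI elsewhere was allowed, the difference was 0.109 amino acids (exact p = 0.00146), and without the 2 libraries with fewer than 100 private clonotypes it was 0.0670 (exact p = 0.0273). It was also called with no UMI minimum (0.157, exact p = 0.000977) and after downsampling (0.0962, median exact p = 0.0347). The difference was not called with at least 5 UMIs (0.120, exact p = 0.233) or with TRAV copies merged by name (0.0428, exact p = 0.266). Nor was it for CDR3 of 7 to 20 amino acids (0.0167, exact p = 0.622). It was negative with clonotypes by CDR3 bases (-0.0176, exact p = 0.970) and against clonotypes of all 12 libraries (-0.0271, exact p = 0.733). The SD of length within a library was 1.71 ± 0.42 for private and 1.29 ± 0.13 for shared clonotypes and was larger for private ones in 11 of 12 libraries (exact p = 0.000977, adjusted p = 0.00163). The difference in SD of 0.423 was 0.213 with TRAV copies merged by name (exact p = 0.00684) and 0.325 with 1 UMI elsewhere allowed (exact p = 0.000488), and with at least 5 UMIs it was 0.501 and did not pass (exact p = 0.0522).

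Lengths at the centre were less frequent and long ones more frequent among private clonotypes. Of the 7 lengths with a mean share of at least 1%, 4 (57.1%) differed at an adjusted p below 0.05, but 0 did with at least 5 UMIs and 1 with 3 to 10 UMIs in both sets, and 5 did with 1 UMI elsewhere allowed. Lengths of 13 and 14 amino acids made up 29.1% ± 3.9 and 28.1% ± 3.2 of private clonotypes against 32.2% ± 2.1 and 31.1% ± 1.2 of shared ones (exact Wilcoxon tests, adjusted p = 0.0239 and 0.0285). Lengths of 15 and 16 made up 9.57% ± 2.41 and 2.65% ± 1.22 against 6.33% ± 1.098 and 1.35% ± 0.43 (adjusted p = 0.0171 and 0.0367). Lengths of 10, 11 and 12 did not pass (adjusted p = 0.247, 0.444 and 0.569). The call for 15 amino acids was lost with at least 5 UMIs (adjusted p = 0.147) and held without each library in turn (adjusted p up to 0.0342), whereas that for 13 was lost without Il2° replicate 4 (0.0564), that for 14 without any of wt replicates 1 to 3 and Il2° replicates 1 and 2 (0.0564 to 0.0735) and that for 16 without these 5, Il2° replicate 4 or Il15° replicate 2 (0.0564 to 0.0735). That for 13 was also lost with clonotypes by CDR3 bases (0.129) and at 3 to 10 UMIs (0.0743), that for 14 at 3 to 10 UMIs (0.0627), with copies merged (0.0743) and after downsampling (0.0596), and that for 16 at 3 to 10 UMIs (0.0627). These tests were added after the data had been seen.

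At the far end, 4 private clonotypes had a CDR3 of 37 to 39 amino acids, with 3 to 5 UMIs each, in wt replicate 4, Il2° replicate 1 and Il15° replicates 1 and 2. All 4 used TRAJ17, with 68 to 75 bases between the TRAV and TRAJ matches. When CDR3 outside 7 to 20 amino acids were left out, the difference in inserted bases was 0.790 (exact p = 0.000488).

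**Figure D3:**
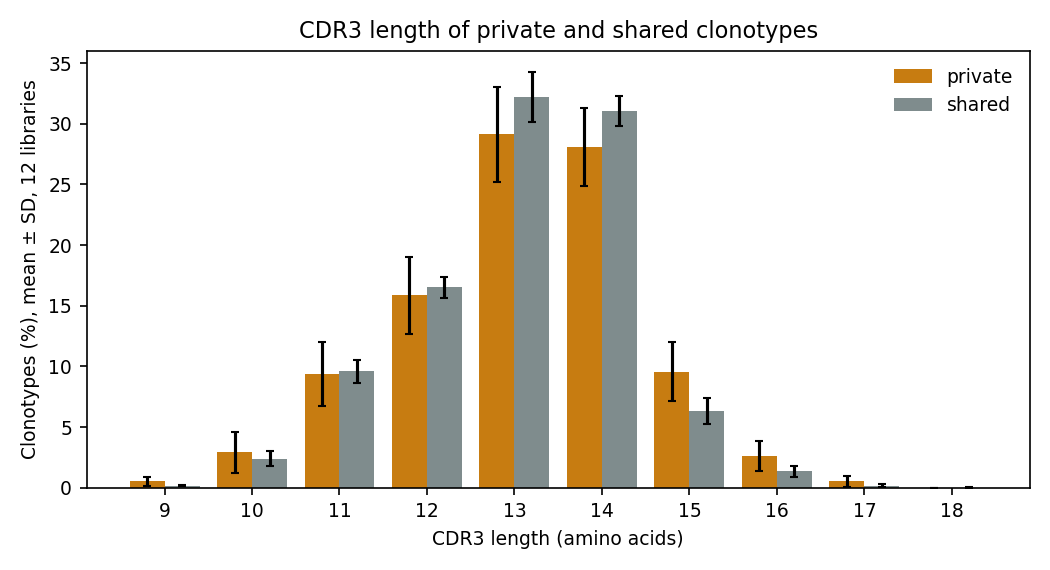
Share of private (orange) and shared (grey) clonotypes with a CDR3 of 9 to 18 amino acids, as the mean of the 12 libraries with SD as error bars. Private clonotypes had lower bars at 13 and 14 and higher bars at 15 and 16 amino acids.

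The residues inside the CDR3 differed little. After leaving out the first 3 and last 3 positions, 3 of 20 amino acids (15%) passed an adjusted p of 0.05 and 5 (25%) an unadjusted one. Aspartate, an acidic residue, made up 2.33% ± 0.23 of private and 1.98% ± 0.20 of shared residues and was higher in 11 of 12 libraries (exact Wilcoxon test, adjusted p = 0.00977). Proline, which constrains the backbone, made up 2.16% ± 0.23 and 1.68% ± 0.15 and was also higher in 11 (adjusted p = 0.00977). Glycine, the smallest residue, made up 18.7% ± 0.7 and 19.5% ± 0.2 and was lower in 11 (adjusted p = 0.0163). With at least 5 UMIs in both sets, aspartate and proline differed by -0.0708 and -0.109 percentage points (private minus shared) and none of the 20 passed, and the glycine call was lost without Il15° replicate 2 (adjusted p = 0.0651). Glycine was also lost with clonotypes by CDR3 bases (difference -0.259 in place of -0.821 percentage points, adjusted p = 0.259) and at 3 to 10 UMIs (0.107), proline by CDR3 bases (0.0806) and with UMI weights (0.0526), and aspartate after downsampling (0.0979). With 1 UMI elsewhere allowed, 12 of 20 residues (60%) passed.

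Private clonotypes used 98 of the 104 TRAV names and 41 of the 43 TRAJ names of the series. TRAV segments without a copy letter made up 37.8% ± 4.8 of private and 35.2% ± 3.0 of shared clonotypes, D copies 42.8% ± 4.8 and 43.5% ± 2.0, and N copies 19.4% ± 2.2 and 21.4% ± 1.7. Segments with a mean share of at least 1% in either set were tested.

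Of 35 TRAV segments, 2 (5.71%) differed at an adjusted p below 0.05, both lower in private clonotypes, and 12 (34.3%) at an unadjusted one, 5 of them higher and 7 lower. TRAV12N-3 (chr14:53240745-53241244) made up 0 to 1.99% of the private clonotypes of a library, with a median of 0.999%, and 3.74 to 7.08% of the shared ones, with a median of 5.42%. The 2 ranges did not overlap. Its mean was 1.07% ± 0.69 against 5.55% ± 1.06, lower in 12 of 12 libraries (exact Wilcoxon test, adjusted p = 0.00854). This call held under every alternative in which the segment kept its name. By sharing, TRAV12N-3 was used by 1.41% of clonotypes found in 1 library, 1.92% of those in 2, 8.07% of those in 5 and 12.1% of those in all 12. Clonotypes of more libraries also had higher UMI counts, as given above.

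TRAV7-4 (chr14:53461099-53461738) made up 0 to 0.990% of private and 0.883 to 2.07% of shared clonotypes, lower in 12 of 12 libraries (means 0.504% ± 0.375 and 1.47% ± 0.31, exact test, adjusted p = 0.00854). When clonotypes of 1 and 2 UMIs were included in both sets, its share was 0.0244 percentage points higher in private clonotypes (adjusted p = 1), and with at least 5 UMIs the difference did not pass (adjusted p = 0.228). It was -0.989 percentage points with 1 UMI elsewhere allowed (adjusted p = 0.00439). The most used segment, TRAV4D-3, made up 12.8% ± 5.7 of private and 16.6% ± 2.1 of shared clonotypes, lower in 11 of 12 libraries without passing adjustment (adjusted p = 0.0817). When 1 UMI elsewhere was allowed, it was lower in 12 of 12 (12.8 against 17.4%), and 19 of 36 TRAV segments (52.8%) passed, 10 higher and 9 lower.

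Of 27 TRAJ segments, 1 (3.7%) passed adjustment and 5 (18.5%) had an unadjusted p below 0.05. TRAJ6 (chr14:54212688-54212749) made up 1.72 to 3.51% of private and 0.883 to 2.37% of shared clonotypes, with means of 2.41% ± 0.64 and 1.64% ± 0.50. It was higher in private clonotypes in 11 of 12 libraries (exact Wilcoxon test, adjusted p = 0.0264), the exception being Il15° replicate 2 (2.31 against 2.37%). The call was lost with no UMI minimum, where the TRAJ6 difference was 0.174 in place of 0.776 percentage points (adjusted p = 0.485), with at least 5 UMIs (0.242), at 3 to 10 UMIs (0.218), with clonotypes by CDR3 bases (0.201) and after downsampling (0.0990). It was also lost without wt replicate 2 or 4, Il2° replicate 1, 2 or 4, or Il15° replicate 4 (adjusted p of TRAJ6 from 0.0508 to 0.0889). With 1 UMI elsewhere allowed, 14 of 26 TRAJ segments (53.8%) passed, TRAJ6 among them (adjusted p = 0.0127).

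**Figure D4:**
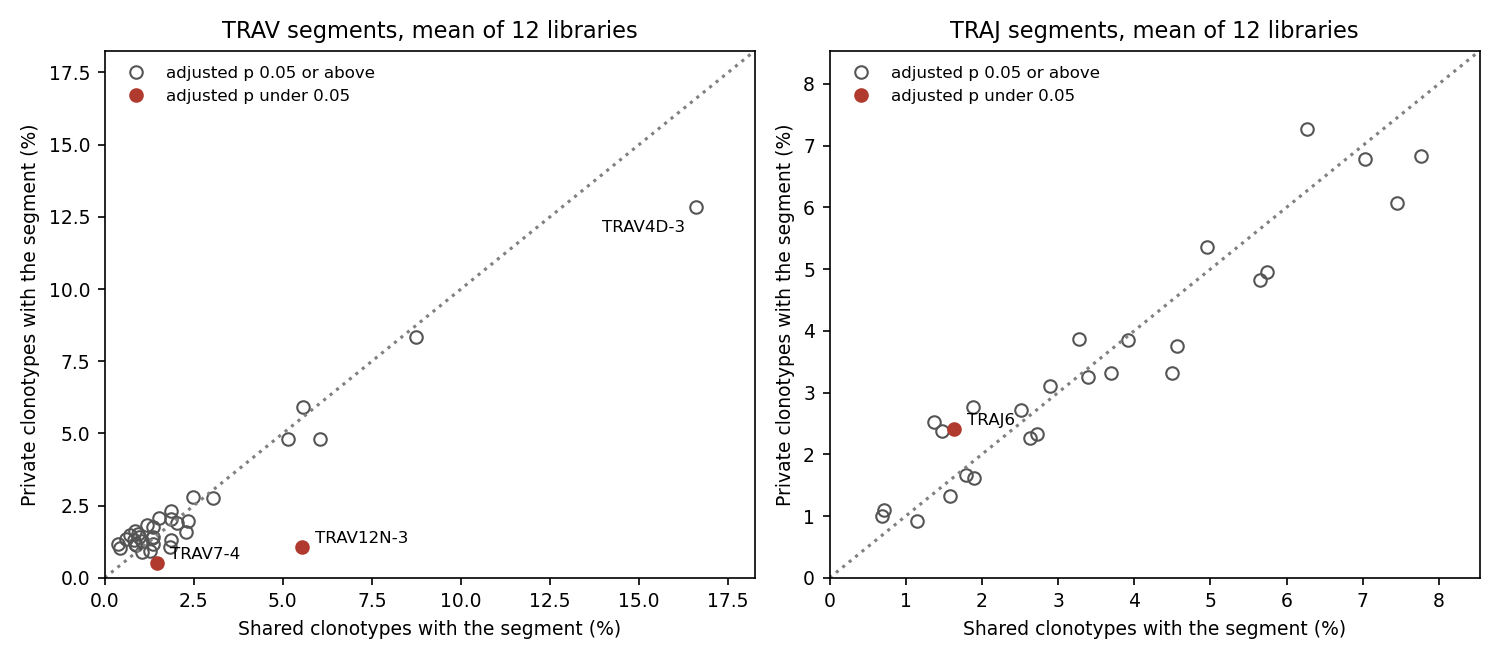
Mean share over the 12 libraries of each tested TRAV (left) and TRAJ (right) segment among shared (horizontal axis) and private (vertical axis) clonotypes, in percent. Filled red points passed an adjusted p of 0.05, and the dotted line marks equal shares. TRAV12N-3 lies farthest below the line, at 5.55% of shared and 1.07% of private clonotypes.

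Neither junctions nor lengths of private clonotypes differed between genotypes beyond the spread between mice. Private clonotypes had 3.07 ± 0.27 inserted bases in wt, 2.86 ± 0.46 in Il2° and 3.15 ± 0.66 in Il15° libraries (n = 4 each, exact 2-sided Mann-Whitney tests, p = 0.686 for Il2° against wt and 0.343 for both contrasts of Il15°). The mean CDR3 length was 13.11 ± 0.08, 13.06 ± 0.14 and 13.09 ± 0.16 amino acids (exact p = 1 for all 3 contrasts). The difference between private and shared clonotypes was of like size too. Private clonotypes had 0.812 ± 0.414 more inserted bases than shared ones in wt libraries, 0.830 ± 0.285 more in Il2° and 0.964 ± 0.675 more in Il15° (exact p = 1, 0.486 and 0.486 for Il2° against wt, Il15° against wt and Il15° against Il2°). Their CDR3 exceeded that of shared ones by 0.0750 ± 0.0848, 0.0184 ± 0.1465 and 0.0251 ± 0.1789 amino acids in the same order of genotypes (exact p = 0.686, 1 and 1). All adjusted p were 1. With 4 libraries in each group the exact test cannot go below 0.0286, and a missed threshold does not show that the genotypes were alike.

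No TRAV or TRAJ segment passed adjustment in any contrast of genotypes (0 of 32 and 0 of 26, 0%), which 4 against 4 could reach only if most segments differed without overlap. On the numbers of private clonotypes, edgeR's quasi-likelihood test called 5 TRAV segments in Il2° against wt, TRAV4D-3 among them (log2 fold change -1.04, adjusted p = 0.0428), and DESeq2 called 0 (adjusted p = 0.204 for TRAV4D-3). In Il2° against wt, 3 of 32 TRAV segments (9.38%) did not overlap between the genotypes, an unadjusted exact p of 0.0286, and in Il15° against Il2° 1 (3.12%) did not, while Il15° against wt had none. Among TRAJ segments this held for 1 of 26 (3.85%) in Il2° against wt, for 2 (7.69%) in Il15° against wt and for 1 in Il15° against Il2°. With TRAV copies merged by name, the number of TRAV segments at an unadjusted p below 0.05 in Il2° against wt was 1 in place of 3. It was 1 by CDR3 bases, 2 with 1 UMI elsewhere allowed and 0 with at least 5 UMIs. After downsampling it was 0.75 on average, and by edgeR it was 8. The segments of the main setting are described next, by their share of private clonotypes.

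TRAV4D-3 (chr14:52899969-52900470) made up 14.3, 16.5, 17.01 and 13.8% of private clonotypes in the wt libraries (replicates 1 to 4) and 9.57, 6.96, 12.8 and 3.51% in the Il2° libraries. Il15° libraries spanned both, with 16.8, 11.9, 6.45 and 24.5%. The Il2° mean was 8.20% ± 3.93 and the wt mean 15.4% ± 1.6 (exact Mann-Whitney test, p = 0.0286, adjusted p = 0.305). Shared clonotypes had the same direction, with 14.4% ± 1.3 in Il2° and 18.1% ± 0.8 in wt (exact p = 0.0286), and the difference between private and shared did not differ between the genotypes by the test (exact p = 0.114). The difference of -7.22 percentage points was -6.99 with 1 UMI elsewhere allowed (exact p = 0.0286). It was -2.10 with no UMI minimum (exact p = 0.2), -4.13 with at least 5 UMIs (exact p = 0.629) and -5.10 without the 2 libraries under 100 private clonotypes (exact p = 0.114), and so no longer passed. The lowest value, 3.51%, was that of Il2° replicate 4 and stood for 2 of 57 clonotypes.

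TRAV10N made up 2.61, 1.45, 1.32 and 5.26% of private clonotypes in the Il2° libraries, against 1.19, 0.726, 0.515 and 1.23% in wt and 0.336, 0.330, 0 and 1.29% in Il15° (both contrasts exact p = 0.0286, adjusted p = 0.305 and 0.610). These shares stand for few clonotypes, 3 to 10 in each Il2° library, 1 to 12 in wt and 0 to 3 in Il15°. Its share of shared clonotypes was 0.678% ± 0.298 in Il2° and 0.484% ± 0.034 in wt. TRAV6N-6 (chr14:53132679-53133137) made up 1.67% ± 0.24 of private clonotypes in Il2° and 0.702% ± 0.493 in wt (exact p = 0.0286, adjusted p = 0.305). The highest wt value and the lowest Il2° value were close for TRAV10N (1.23 and 1.32%) and for TRAV6N-6 (1.09 and 1.32%). Without Il2° replicate 4 the TRAV10N difference between Il2° and wt was 1.084 in place of 1.74 percentage points, and without wt replicate 3 that of TRAV6N-6 was 0.629 in place of 0.973. The TRAV10N difference between Il2° and wt was 0.297 with no UMI minimum (exact p = 0.114), 0.730 with at least 5 UMIs (exact p = 0.714), 1.22 with clonotypes by CDR3 bases (exact p = 0.2), 1.03 with 1 UMI elsewhere allowed (exact p = 0.2) and 1.44 after downsampling (median exact p = 0.343). Between Il15° and Il2° it was -1.25 in place of -2.17 with 1 UMI elsewhere allowed (exact p = 0.0571). TRAV6N-6 was 0.628 with 1 UMI elsewhere allowed (exact p = 0.0286), 0.220 with at least 5 UMIs (exact p = 1) and 0.598 after downsampling (median exact p = 0.457).

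Among TRAJ segments, TRAJ21 (chr14:54198790-54198846) made up 5.71, 6.27, 9.68 and 6.44% of private clonotypes in the Il15° libraries and 4.97, 3.99, 3.61 and 5.43% in wt (exact p = 0.0286, adjusted p = 0.371). Without Il15° replicate 3, where it stood for 3 clonotypes, the difference was 1.402 in place of 2.52 percentage points, without Il15° replicate 4 it was 1.26, and with 1 UMI elsewhere allowed it was 0.582 (exact p = 0.343). TRAJ43 (chr14:54174742-54174798) made up 0.714% ± 0.481 in Il15° and 1.18% ± 0.11 in wt (exact p = 0.0286), TRAJ39 (chr14:54179962-54180024) 2.63% ± 1.19 in Il2° and 3.72% ± 0.19 in wt (exact p = 0.0286), and TRAJ40 (chr14:54177921-54177981) 1.21% ± 1.00 in Il15° and 3.75% ± 1.27 in Il2° (exact p = 0.0286). Their adjusted p were 0.371, 0.594 and 0.743. Without Il15° replicate 4 TRAJ43 was 0.179 percentage points higher in Il15° than in wt, and the TRAJ40 difference was -1.49 in place of -2.54. In every run without a library, private clonotypes were chosen anew among the remaining ones. The shares of the remaining libraries therefore changed as well, and such a shift is not the weight of the omitted value alone. The TRAJ39 difference of -1.09 was -0.512 without Il2° replicate 1 and -0.544 without wt replicate 2. With 1 UMI elsewhere allowed, none of the 4 kept an unadjusted p of 0.0286 (0.343 to 0.686).

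**Figure D5:**
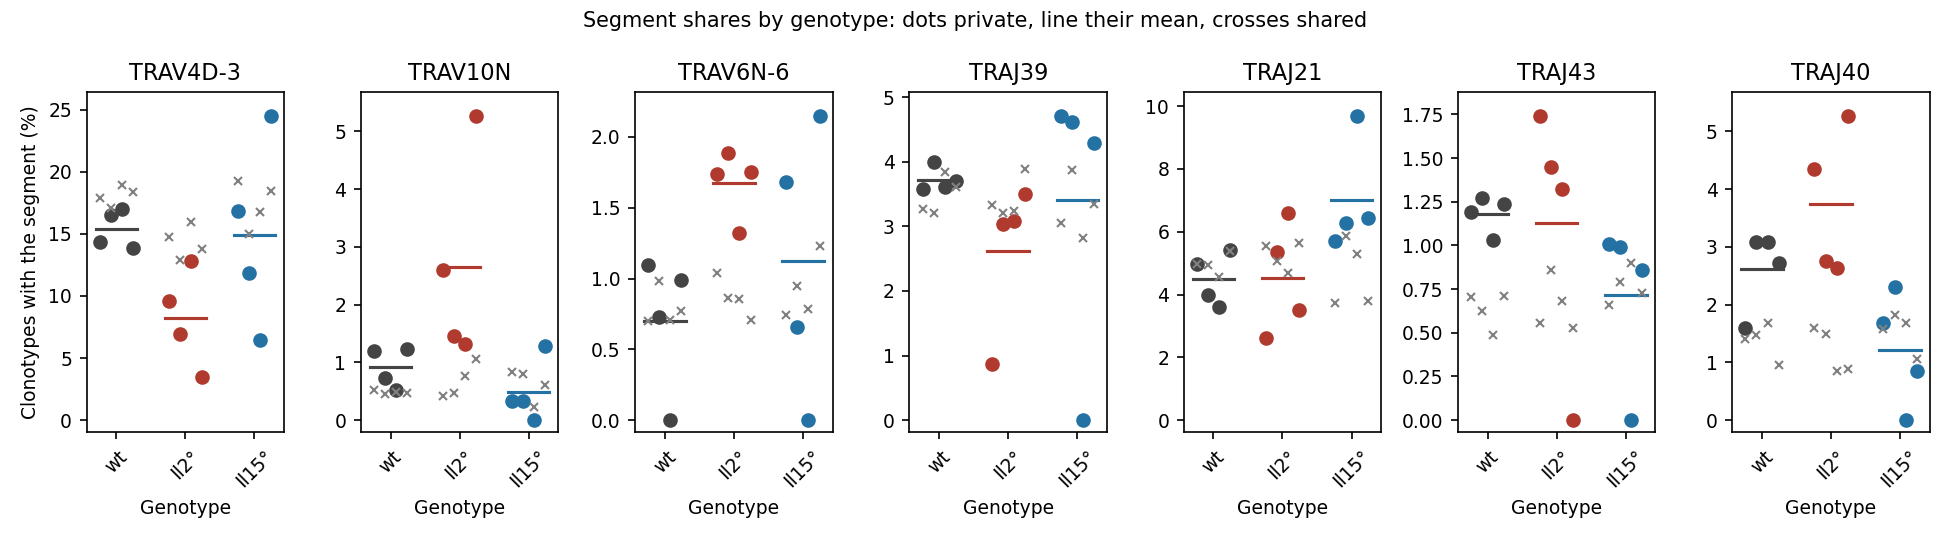
Share in percent of private clonotypes (coloured dots, 1 for each library, with a line at the mean of the 4) and of shared clonotypes (grey crosses) that used the 7 segments whose private shares did not overlap between 2 genotypes. All Il2° dots of TRAV4D-3, 3.51 to 12.8%, lie under the wt dots, 13.8 to 17.01%, and the Il15° dots span both.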

How the data were processed

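TCRα repertoires of 12 libraries, 1 per mouse, were deposited as 1 clonotype table each. As stated in the study's methods, the authors filtered reads by quality, built UMI consensus sequences with pRESTO, dropped UMIs seen in fewer than 2 reads, ran MiXCR for alignment, clonotype assembly and export, and processed the tables further with VDJtools; versions and the annotation are not given in the sources used here, and mm10 stands in the submitters' processing notes. The deposited count is the number of UMIs of a CDR3 base sequence with its TRAV and TRAJ segment, and the deposited fraction sets it against the table's total. The deposited positions give the last TRAV and the first TRAJ base within the CDR3. Inserted bases are the bases between them, overlaps set to 0. Of the private clonotypes, 8 had no usable positions. The bases from the TRAJ start were found whole in the GENCODE segment of that name for 81.0% of 4399 private clonotypes. Those up to the TRAV end were found whole for 74.2% of 4170. For the remainder, bases assigned to a segment were not all found in it, so that their number of inserted bases is less certain. These rates are for private clonotypes only. Whether they differ from those of shared clonotypes, with which the inserted bases were compared, was not tested.

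Counts were summed over base sequences of a clonotype, using Python 3.11.15 with pandas 2.3.3 and numpy 2.4.6. Every clonotype counted once, with the bases of its commonest sequence. Where libraries were left out, private and shared clonotypes were chosen anew among the remaining libraries. Means and shares per library were compared by the exact 2-sided Wilcoxon matched pairs test (private against shared, 12 libraries) or the exact Mann-Whitney test (genotypes, 4 against 4), all assignments enumerated, with Benjamini-Hochberg adjustment over all segments with a mean share of at least 1% or over all residues. edgeR 4.0.16 (quasi-likelihood test) and DESeq2 1.42.0 in R 4.3.3 were alternatives on the numbers of private clonotypes per segment. Scripts were tested on simulated data with known answers. Clonotypes named are the largest private one of each library (both when 2 tied) and the shared one with the highest mean share; segments named passed adjustment or, between genotypes, had the smallest unadjusted p, at most 3 in a contrast. The private clonotypes, lists and tests were chosen with earlier results of these data known. Replicate numbers were not treated as pairs of mice, since the labels state no such pairing. Deviations of same-numbered libraries correlated between -0.484 and 0.545, which does not settle whether mice were paired. No 2 tables were identical. Intervals cover counting error only. Out-of-frame sequences and those with a stop codon entered library totals only.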

Additional observations from a re-analysis of the deposited data

Results flagged for a closer look

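Within genotypes, 60 sets of 4 libraries were examined for a library that stood apart, and 8 did so. The rule's rate of about 1 in 20 holds for independent, normally distributed values. These sets are measures of the same 12 libraries, so that the 8 cannot be weighed against that rate. Of these 8, 6 concerned Il15° replicate 3 with its 31 private clonotypes. It had 2.16 inserted bases against 3.41 to 3.53 in the other Il15° libraries, 9.68% junctions with 6 or more inserted bases against 19.7 to 21.5%, and 93.5% clonotypes with 1 base sequence against 98.0 to 98.7%. It also had 0% TRAV12N-3 against 0.858 to 1.01%, 0% TRAJ39 against 4.29 to 4.71% and 0% TRAJ43 against 0.858 to 1.01%. Private CDR3 length had an SD of 1.85 amino acids in wt replicate 4, where the remaining wt libraries had 1.45 to 1.51, and of 2.88 in Il2° replicate 1, where the remaining Il2° libraries had 1.36 to 1.58. Both held a CDR3 of at least 37 amino acids, and whether these alone account for the SD was not tested.

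The difference between private and shared clonotypes had an unadjusted p of 0.0286 between genotypes for 7 of 174 tests of TRAV and TRAJ segments in 3 contrasts (4.02%, exact Mann-Whitney tests on private minus shared shares). These differences of differences were -2.87 percentage points for TRAJ40 (Il15° minus Il2°), 2.82 for TRAJ21, -0.607 for TRAJ43, 1.48 for TRAJ50 and -1.53 for TRAV6-5 (Il15° minus wt), and 0.897 for TRAV6N-6 and 0.979 for TRAV7-6 (Il2° minus wt). TRAJ50, TRAV6-5 and TRAV7-6 were named after their values were seen.

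Outside the comparisons, 392 sequences out of frame or with a stop codon occurred in 1 library with at least 3 UMIs, 1436 UMIs in all, with 0 in Il15° replicate 3 and 100 in wt replicate 1.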

How the results depend on the processing

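The higher number of inserted bases in private clonotypes kept its direction and call under all alternatives run for it, with differences of 0.691 to 1.52 bases (0.797 to 0.937 leaving out 1 library each). The difference in mean CDR3 length, not called, was called with no UMI minimum (0.157 amino acids, exact p = 0.000977), with 1 UMI elsewhere allowed (0.109), without the 2 libraries under 100 private clonotypes (0.0670) and after downsampling to 7625 UMIs (0.0962, median p = 0.0347 of 20 draws). Under the other alternatives it was not called. By CDR3 bases (-0.0176) and against clonotypes of all 12 libraries (-0.0271) it was negative.

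Counts of segments depended on the setting. TRAV segments passing numbered 2, but 8 with no UMI minimum, 7 with copies merged, 8 with clonotypes by CDR3 bases, 10 weighted by UMIs, 19 against clonotypes of all 12 libraries, 6 by a sign-flip permutation test, 19 with 1 UMI elsewhere allowed, 14 without the 2 small libraries and 9.55 on average when downsampled. Leaving out 1 library gave 2 to 13, with 13 and 11 without Il15° replicates 3 and 4, 8 without Il2° replicate 4, 7 without wt replicate 1, 6 without Il15° replicate 2 and 5 without wt replicate 2, Il2° replicate 3 or Il15° replicate 1. TRAJ segments passing numbered 1, but 3 with no minimum, 0 with at least 5 UMIs and with 3 to 10 UMIs in both sets, 2 by CDR3 bases, 9 weighted, 19 against clonotypes of all 12, 14 with 1 UMI elsewhere, 4 without the 2 small libraries, 2.8 downsampled and 0 to 2 leaving out 1 library (TRAJ6 was not among those with no minimum or by CDR3 bases; 0 without wt replicate 2 or 4 or Il2° replicate 1, 2 or 4, and 2 without wt replicate 1 or 3, Il2° replicate 3 or Il15° replicate 2 or 3). Residues passing numbered 3, but 9, 0, 9, 13, 12, 9 and 4.55 with no minimum, at least 5 UMIs, UMI weights, all 12, 1 UMI elsewhere, without the 2 small libraries and downsampled, and 2 to 5 leaving out 1 library (5 without Il15° replicate 3 or 4). The cause of these shifts was not tested.

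The mean number of private clonotypes was 367 a library, 904 with no minimum, 634 with 1 UMI elsewhere allowed, 125 after downsampling and 77.25 with at least 5 UMIs, and their mean share of UMIs 7.81%, or 2.75% with at least 5 UMIs and 15.1% with 1 UMI elsewhere allowed. The reversals listed here are of differences that passed in the main setting, unadjusted between genotypes. Directions reversed for TRAV7-4 with no minimum (0.0244 percentage points) and for aspartate and proline with at least 5 UMIs (-0.0708 and -0.109). Between genotypes they reversed for TRAJ40 with at least 5 UMIs (1.67, Il15° minus Il2°) and TRAJ43 without Il15° replicate 4 (0.179, Il15° minus wt, -0.550 to 0.179 leaving out 1 library each). Differences that had not passed are not listed here. The one in mean CDR3 length between private and shared clonotypes also changed sign, as given above.

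Between genotypes, edgeR on numbers of private clonotypes called 5 TRAV segments in Il2° against wt, named after their values were seen: TRAV4N-3, TRAV12D-2 and TRAV4D-3 lower, TRAV13N-1 and TRAV7D-6 higher (adjusted p = 0.0119 to 0.0428), and DESeq2 called 0 (lowest adjusted p = 0.197). With the replicate block, no segment passed, and 4 pairs cannot go below an exact p of 0.125 (TRAV4D-3 -7.22 percentage points, p = 0.125). Unadjusted counts between genotypes were not run where a genotype was left with 3 libraries, which cannot go below 0.0571. The replicate numbers are not stated to pair mice, so the block was run as a check of the calls only. Depth limits all of this: most private clonotypes could not be told from rare shared ones.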
